A study of Rattus norvegicus with 12 samples.

Results

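The rat major histocompatibility complex is called RT1, and its genes encode the molecules that show peptides to T cells. The genes described here are every gene in the liver count tables whose name begins with RT1-, together with 12 partners chosen by name: B2m, Cd74, Tap1, Tap2, Tapbp, Psmb8, Psmb9, Psmb10, Ciita, Nlrc5, Pdia3 and Erap1. They come to 46 of the 16558 genes in the joined tables. Of these, 34 bear the RT1 prefix, and by name 24 of those belong to class I and 10 to class II. The filter on low counts was passed by 36 members, of which 19 were class I genes and 6 were class II genes.

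Liver RNA of Sprague Dawley rats was sequenced in 4 groups of 3 libraries. Arm G (G.1, G.3 and G.4) and arm D (D.1, D.4 and D.7) had a high-fat diet to bring about fatty liver and were treated with didymin, a flavonoid glycoside of citrus fruit. The model group (M.5, M.6 and M2.1) had the high-fat diet for 8 weeks without didymin, and the normal group (N.1, N.2 and N.3) had saline, with no high-fat diet named for it. The didymin groups differ in dose, but no label joins the letters D and G to the low or the high dose, and the length of their diet and the age and sex of the rats are not given.

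Class I molecules sit on almost all nucleated cells and present peptides from the cytosol. The immunoproteasome cuts these peptides, the TAP transporter carries them into the endoplasmic reticulum, and tapasin and its partners load them onto a heavy chain bound to beta-2-microglobulin. Class II molecules are pairs of an alpha and a beta chain that are assembled on the invariant chain Cd74, and in liver they are found mainly on Kupffer cells, dendritic cells and B cells. Ciita is the transactivator that switches class II genes on, and Nlrc5 acts in the same way on class I genes.

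Total counts were between 12469914 and 15521648 per library. The share taken by the 13 mitochondrial genes ran from 3.85% to 61.0%, and it was highest in G.3 (61.0%) and M.6 (44.1%), so low genes are least precise there. Values are CPM, counts scaled to a common library size, and are not per gene length, so levels are compared between libraries and not between genes. The labels do not say whether each library came from its own rat, and the p-values cover no more than the spread among the libraries. Members resemble each other in sequence, and how reads matching several of them were counted is not given in the sources used here, so the values of single class I genes and of the paired class II chains are uncertain.

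By edgeR's quasi-likelihood test, 0 members had an adjusted p under 0.05 in each of the 4 comparisons, as had 0% of all 12355 tested genes. DESeq2 and limma-voom likewise gave 0 members in each comparison. What follows therefore gives levels, fold changes and unadjusted p-values as descriptions. In bulk liver, fewer cells of a type and less RNA per cell cannot be told apart.

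Class II genes share a promoter module of an X box and a Y box, at which the factors that recruit Ciita bind. In RefSeq, assembly GRCr8, 38 of the 46 members have a promoter sequence, and 39 members lie on chromosome 20. Within 250 bases upstream of the start, read on both strands, the Y box letters CTGATTGG were found in 7 of 9 class II promoters (77.8%), in 5 of 21 class I promoters (23.8%) and in 3.26% of all 27457 promoters. The X box core AGCAAC, which shares no position with the Y box, was found in 6 of 9 class II promoters (66.7%) and in 12.2% of all. It was found in 3 of 21 class I promoters (14.3%) and in 2 of 8 of members without the RT1 prefix (25.0%: Cd74 and Tap2). RT1-Ba and RT1-Bb had no match to this core. The stretches around the Y box are shown for the 4 class II genes with the highest counts and for RT1-DOa, a gene of low counts that was highest in G.3. Capitals mark the X box core, where these letters occur, and the Y box. Each is given 5′ to 3′ on the strand of its gene.
RT1-Da, chr20:4515313-4515390, plus strand: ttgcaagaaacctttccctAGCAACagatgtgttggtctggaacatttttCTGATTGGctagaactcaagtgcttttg
RT1-Db1, chr20:4560218-4560295, minus strand: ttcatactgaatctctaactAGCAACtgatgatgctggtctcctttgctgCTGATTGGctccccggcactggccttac
RT1-Ba, chr20:4576961-4577038, plus strand: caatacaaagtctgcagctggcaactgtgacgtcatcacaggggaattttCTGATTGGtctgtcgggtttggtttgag
RT1-Bb, chr20:4604155-4604232, minus strand: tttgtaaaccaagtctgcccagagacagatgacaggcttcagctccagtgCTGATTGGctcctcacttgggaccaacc
RT1-DOa, chr20:4758506-4758583, minus strand: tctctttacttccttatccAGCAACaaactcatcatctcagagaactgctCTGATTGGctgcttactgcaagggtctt
The core and the Y box were 25 bases apart in RT1-Da and RT1-DOa and 24 in RT1-Db1. A match describes these letters only, and a window without one says nothing of the factor. The interferon response element core TTTCNNTTTC had another distribution. It was found in 5 of 8 promoters of members without the RT1 prefix (62.5%: B2m, Tap1, Tap2, Tapbp and Psmb10), in 3 of 21 class I promoters, in 0 of 9 class II promoters and in 3.29% of all promoters.

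The 4 class II genes with the highest counts had their highest means in arm D, and they varied together from library to library. RT1-Da, the alpha chain of the RT1-D molecule, was at 96.2, 117 and 150.2 CPM in G.1, G.3 and G.4, at 159, 343 and 297 CPM in D.1, D.4 and D.7, at 256, 128 and 61.9 CPM in M.5, M.6 and M2.1, and at 69.2, 63.8 and 114 CPM in N.1, N.2 and N.3. RT1-Db1, its beta chain, was at 51.5, 84.8 and 90.4 CPM in arm G, 124, 238.3 and 171 CPM in arm D, 202, 75.4 and 39.9 CPM in the model, and 23.4, 44.1 and 48.2 CPM in the normal group, with libraries in the same order. For both chains D.4 was the highest library, every arm G library lay below every arm D library, and the model libraries spread from the level of the normal group to that of arm D.

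RT1-Ba, the alpha chain of the RT1-B molecule, was at 58.4, 53.0 and 113 CPM in arm G, 146, 242 and 158 CPM in arm D, 123, 74.2 and 48.8 CPM in the model, and 45.1, 47.8 and 68.4 CPM in the normal group. RT1-Bb, its beta chain, was at 41.3, 37.7 and 76.2 CPM in arm G, 101.9, 217 and 109 CPM in arm D, 95.4, 30.7 and 33.1 CPM in the model, and 24.4, 35.1 and 32.3 CPM in the normal group. For this pair the arm D libraries lay above those of arm G, the model and the normal group without overlap.

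Cd74, the invariant chain, was at 263, 384 and 404 CPM in arm G, 404, 905 and 829 CPM in arm D, 648, 424 and 155 CPM in the model, and 207, 162 and 337 CPM in the normal group. It followed RT1-Da closely. The ratio of RT1-Da counts to Cd74 counts lay between 0.303 and 0.399 in all 12 libraries, a 1.32-fold range, while the summed CPM of the class II RT1 genes covered a 6.42-fold range. By Pearson's r of log2 CPM over the 12 libraries, the 3 members most like RT1-Da were Cd74 (0.986), RT1-Db1 (0.946) and RT1-Ba (0.932). Without M.6 and G.3 these were 0.995, 0.951 and 0.953. The libraries share sequencing depth and sample makeup, so these values describe the libraries and carry no test.

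**Figure D1:**
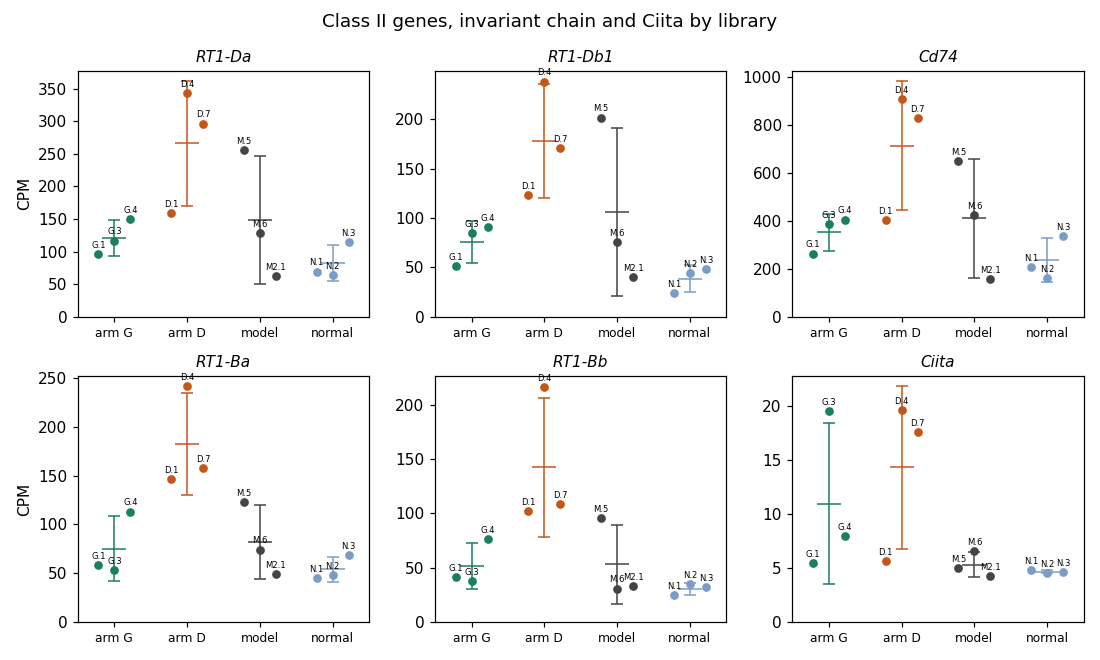
CPM of RT1-Da, RT1-Db1, Cd74, RT1-Ba, RT1-Bb and Ciita in each library, by group (arm G, arm D, model, normal), with the mean and SD of 3 libraries as a bar and whiskers. D.4 is the highest library for the class II chains and Cd74, and the 3 model libraries are far apart, with M.5 high and M2.1 low.

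Ciita was at 5.43, 19.5 and 7.97 CPM in arm G, 5.68, 19.7 and 17.6 CPM in arm D, 5.02, 6.57 and 4.28 CPM in the model, and 4.802, 4.51 and 4.62 CPM in the normal group. The high libraries were G.3, D.4 and D.7, and the other 9 lay between 4.28 and 7.97 CPM. G.3 had a Ciita level near that of D.4 and yet 117 CPM of RT1-Da, against 343 CPM in D.4. Conversely, M.5 had 256 CPM of RT1-Da with Ciita at 5.02 CPM. The r between Ciita and RT1-Da was 0.639, or 0.789 without M.6 and G.3.

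The remaining class II genes had low counts. RT1-DOa, a chain of the molecule that restrains peptide loading, was at 1.73, 11.3 and 2.84 CPM in arm G, 2.70, 3.84 and 1.63 CPM in arm D, 2.51, 2.79 and 0.922 CPM in the model, and 0.640, 1.20 and 1.72 CPM in the normal group. RT1-DOb, its partner, was at 1.09, 5.90 and 1.32 CPM in arm G, 1.42, 4.99 and 2.60 CPM in arm D, 2.998, 1.71 and 1.63 CPM in the model, and 0.704, 1.02 and 1.49 CPM in the normal group. Both were highest in G.3, the library with the fewest nuclear-coded counts, and all model libraries of RT1-DOb lay above the normal ones. The r between RT1-DOa and RT1-Da was 0.463, or 0.786 without M.6 and G.3. RT1-DMa and RT1-DMb, which encode the molecule that exchanges class II peptides, had at most 2 and 7 counts in a library and were not tested, nor were RT1-Db2 and RT1-Ha.

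Set against the model, arm D had a positive log2 fold change for 6 of 6 tested class II genes, with a median of 0.80 beside −0.04 over all genes tested. RT1-Bb had a log2 fold change of 1.43 ± 0.47 (SE) with an unadjusted p of 0.0102, and RT1-Ba had 1.16 ± 0.39 with an unadjusted p of 0.0123. RT1-Da had 0.84, Cd74 had 0.80 and RT1-Db1 had 0.75, none of them past an unadjusted p of 0.05. Ciita had 1.44 ± 0.51, with an unadjusted p of 0.0146, although D.1 lay among the model libraries. All had an adjusted p of 0.783 or above by edgeR. The class II median was 0.42 without M2.1 and 1.53 without M.5. RT1-Da, Cd74 and RT1-Db1 had 0.48, 0.41 and 0.36 without M2.1, and 1.49, 1.30 and 1.63 without M.5.

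Arm G was lower than arm D in class II. The tested class II genes had a median log2 fold change of −1.19 in arm G against arm D, with 1 of 6 positive, beside −0.01 over all genes. RT1-Ba had −1.28 ± 0.40, RT1-Bb had −1.46 ± 0.47, RT1-Da had −1.14 ± 0.47 and RT1-Db1 had −1.23 ± 0.52, with unadjusted p-values of 0.00680, 0.00895, 0.0315 and 0.0340 in that order. Their adjusted p was 0.999 by edgeR. Cd74, at −1.02, did not reach an unadjusted p of 0.05. The positive gene was RT1-DOa, at 0.94 ± 0.69, which had −0.28 without G.3.

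Arm G against the model had no common direction in class II. The median log2 fold change of arm G against the model was −0.08, with 2 of 6 genes positive, and it was 0.54 without M.5 and 0.06 without G.1. RT1-Db1 had −0.48 ± 0.51, which had the other sign (0.39) without M.5. Both didymin arms were set against the same 3 model libraries, so these comparisons are not independent of each other.

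The model was above the normal group for 6 of 6 tested class II genes, with a median log2 fold change of 0.82 beside 0.03 over all genes. RT1-Db1 had 1.45 ± 0.52 with an unadjusted p of 0.0160 and an adjusted p of 0.866 by edgeR, while M2.1, at 39.9 CPM, lay within the normal range of 23.4 to 48.2 CPM. RT1-Da had 0.85 ± 0.47, Cd74 had 0.80, RT1-Bb had 0.79 and RT1-Ba had 0.61, all short of an unadjusted p of 0.05. Without M.5 these were 0.58 for RT1-Db1, 0.20 for RT1-Da, 0.30 for Cd74, 0.06 for RT1-Bb and 0.19 for RT1-Ba. The median was 0.39 without M.5, 1.14 without M2.1 and 1.15 without N.3.

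Markers of the cells that carry class II were read beside these values. Of 15 listed Kupffer cell and macrophage markers, Itgam was not analysed here, and none of the other 14 failed the filter. Their summed CPM was between 555 and 1050.0 in arm G, 784 and 2159 in arm D, 465 and 894 in the model, and 766 and 999.9 in the normal group. All 14 had a positive log2 fold change in arm D against the model, with a median of 1.40 beside −0.04 over all genes, and 12 had an unadjusted p under 0.05, beside 3.04% of all genes in that direction. None had an adjusted p under 0.05, nor had any gene of the other lists. Csf1r, a macrophage growth factor receptor, had 1.45 ± 0.39, and Adgre1, the F4/80 antigen, had 1.43 ± 0.43. In arm G against arm D, 0 of 14 were positive, with a median of −0.76, and in arm G against the model 13 of 14 were positive, with a median of 0.49. In the model against the normal group, however, 1 of 14 was positive, with a median of −0.48, while all 6 class II genes were positive. The part of these cells in the class II values was not tested.

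**Figure D2:**
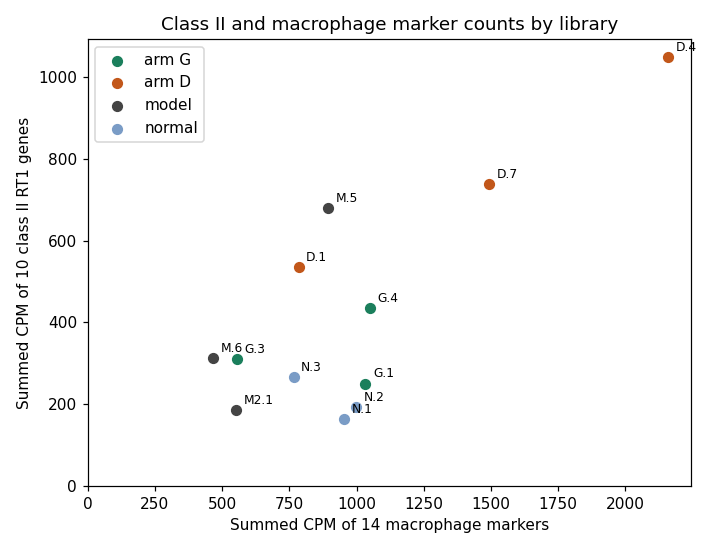
Summed CPM of the 10 class II RT1 genes (vertical axis) against the summed CPM of 14 macrophage markers (horizontal axis), with 1 point per library. D.4 and D.7 are high in both, while M.5 has more class II counts (681 CPM) than N.1, N.2 and N.3 (163 to 267 CPM) at a similar macrophage sum.

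Other cell types with class II moved in part with it. Of 13 dendritic cell markers 11 were tested, and all 11 were positive in arm D against the model, with a median of 0.91 and 3 past an unadjusted p of 0.05, beside the same 3.04%. Their summed CPM was 27.2 to 64.3 in arm G, 29.9 to 108 in arm D, 24.1 to 37.6 in the model and 18.1 to 30.6 in the normal group. B cell markers summed to 273 to 281 CPM in arm G, 215 to 287 CPM in arm D, 51.7 to 292 CPM in the model and 39.1 to 91.5 CPM in the normal group. The B cell sum was 51.7 CPM in M2.1 and 292 and 220.3 CPM in M.5 and M.6. RT1-Da was likewise lowest of the model group in M2.1, and G.1 and N.2 were lowest of their groups in both. In arm D, however, D.7 had the lowest B cell sum (215 CPM) with RT1-Da at 297 CPM, while D.1 had 279 CPM with RT1-Da at 159 CPM. Arm G, with B cell sums much like those of arm D, had RT1-Da at 96.2 to 150.2 CPM, below every arm D library. All 5 tested pan-leukocyte genes were positive both in arm D against the model (median 0.62) and in the model against the normal group (median 0.60). Sinusoidal endothelial markers, of which 10 were tested, were positive 10 times in arm D against the model, with a median of 0.71, and 2 times in arm G against arm D, with a median of −0.54. Hepatocyte markers, the defining genes of the labelled tissue, were all present and summed to 51390 to 188500 CPM in arm G, 164900 to 168900 CPM in arm D, 83770 to 171900 CPM in the model, and 179100 to 217600 CPM in the normal group. B cell markers were positive for 7 of 8 tested genes in arm D against the model (median 0.48) and 4 of 8 in arm G against arm D (median −0.07). In arm G against the model, where 2 of 6 class II genes were positive, these lists went mostly up. There 8 of 8 B cell, 8 of 11 dendritic, 5 of 5 leukocyte and 9 of 10 endothelial markers were positive. Their medians were 0.70, 0.61, 0.31 and 0.20 in that order, beside −0.08 for class II. The part of these lists in the class II values was not tested either.

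Interferon gamma is the chief inducer of Ciita outside professional antigen-presenting cells. Its response list had 14 tested genes of 15, all positive in arm D against the model, with a median of 0.75 and 6 past an unadjusted p of 0.05, beside 3.04% of all genes. Gbp5, a guanylate-binding protein, had 1.64 ± 0.55, and Cxcl10, a chemokine for T cells, had 1.48 ± 0.50. Of these genes 2 of 14 were positive in arm G against arm D, with a median of −0.42, and in the model against the normal group 7 of 14 were, with a median of −0.05. In arm G against the model 13 of 14 were positive, with a median of 0.36, while the class II median there was −0.08. Among 18 genes of class II antigen processing 14 were tested, of which 10 were positive in arm D against the model, with a median of 0.44 beside −0.04 over all genes. At an unadjusted p under 0.05, 3 were higher, beside 3.04% of all genes, and 1 was lower, beside 3.24%. Lgmn, the lysosomal protease legumain, had 1.25 ± 0.36, and Ctss, the cathepsin that trims the invariant chain, had 1.71 ± 0.57. The others past that p, named after their values were seen, were the cathepsin Ctsd, at 0.99 ± 0.39, and Creb1, a factor that binds class II promoters, at −1.39 ± 0.50. Of 9 tested genes of class I antigen processing 5 were positive in arm D against the model, with a median of 0.04 and 0 past an unadjusted p of 0.05 in edgeR's test.

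Class I genes as a sum varied less than class II, but their makeup differed from library to library within each group. The summed CPM of the class I RT1 genes was 1023 ± 419 in arm G, 1182 ± 155 in arm D, 737 ± 175 in the model and 909.9 ± 237 in the normal group (SD, n = 3 each). It covered a 2.55-fold range over the 12 libraries. The lowest sums, 565 and 543 CPM, were in G.3 and M.6, the libraries with the highest mitochondrial shares.

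RT1-A2, a classical class I heavy chain, was at 256, 109.5 and 456 CPM in arm G, 376, 200.4 and 388 CPM in arm D, 356, 80.5 and 154 CPM in the model, and 152, 355 and 199.6 CPM in the normal group. RT1-A1, its classical neighbour in name, was at 60.6, 15.1 and 214 CPM in arm G, 258, 177 and 113 CPM in arm D, 162, 8.46 and 35.5 CPM in the model, and 45.6, 148 and 41.9 CPM in the normal group. The ratio of RT1-A1 to RT1-A2 counts ran from 0.105 in M.6 to 0.881 in D.4, an 8.39-fold range, with 0.138 to 0.470 in arm G, 0.292 to 0.881 in arm D, 0.105 to 0.456 in the model and 0.210 to 0.416 in the normal group. The members most like RT1-A2 in log2 CPM were RT1-A1 (r = 0.914), RT1-T24-4 (0.744) and Tapbp (0.735), and without M.6 and G.3 these were 0.795, 0.472 and 0.246, so the resemblance to Tapbp rested on those libraries.

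Of the nonclassical class I genes with high counts, RT1-CE4 had a narrower range over the libraries than RT1-S3. RT1-S3 was at 296, 89.5 and 221 CPM in arm G, 142, 326 and 285 CPM in arm D, 137, 70.0 and 296 CPM in the model, and 260.1, 265 and 157 CPM in the normal group. RT1-CE4 was at 198, 100.6 and 166 CPM in arm G, 87.3, 149 and 221 CPM in arm D, 95.4, 164 and 79.6 CPM in the model, and 133, 108 and 179.6 CPM in the normal group. Of all class I counts, RT1-CE4 took between 8.47% in D.1 and 30.3% in M.6, and RT1-S3 between 12.9% in M.6 and 37.6% in M2.1. For both genes the groups overlapped.

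**Figure D3:**
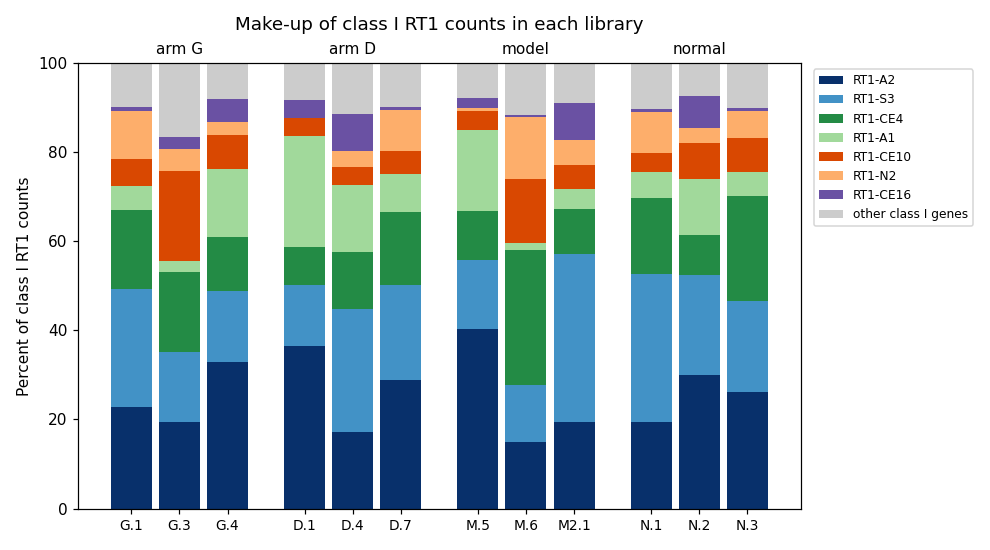
Percent of class I RT1 counts taken by the 7 class I genes with the highest mean share, in each library, with all other class I genes in grey. The makeup differs within groups, as RT1-A2 takes 40.4% in M.5 and 14.8% in M.6.

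RT1-CE16 is a further nonclassical gene. It had 153, 139 and 1065 counts in arm G, 569, 1727 and 132 in arm D, 254, 17 and 1200 in the model, and 87, 1420 and 60 in the normal group. Each group thus held a library with more than 1000 counts and another with at most 139. RT1-CE6 was at 2.30, 0.227 and 3.40 CPM in arm G, 2.48, 1.61 and 3.03 CPM in arm D, 11.8, 1.62 and 3.31 CPM in the model, and 3.91, 2.76 and 7.53 CPM in the normal group, and M.5 was its highest library.

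RT1-N2 stood furthest apart. It had 1904, 246 and 583 counts in arm G, 0, 723 and 2056 in arm D, 58, 847 and 813 in the model, and 1125, 670 and 620 in the normal group. The 0 in D.1 allows up to 3 counts, or 0.213 CPM and 0.0206% of that library's 14541 class I counts, as far as counting error goes. RT1-T24-1 and RT1-T24-2 were also at 0 in D.1, and RT1-T24-1 had 2 counts in M.5, while the remaining 10 libraries had 7 to 50. Other genes nearby had counts in D.1. RT1-T24-3 had 45 and RT1-N3 had 62 there, each the lowest of the 12 libraries, and RT1-T24-4 had 485, the highest. RT1-S2 had 3 in D.1, 1 in M.5 and at most 34 in any library, and RT1-S3 had 1998 in D.1. In RefSeq these genes lie in one stretch of chromosome 20, with RT1-N2 at place 279 and RT1-T24-1 at place 296 in the order of genes. RT1-T24-2, placed in class I here by its name, is listed there as a long noncoding RNA. Like RT1-N2 in log2 CPM were RT1-T24-1 (r = 0.879) and RT1-T24-2 (0.858), and without M.6 and G.3 these were 0.932 and 0.938. D.1, at 0 for each of these genes, is part of every r, and no r without D.1 was computed. The genes were picked after these counts were seen, so the r values restate the shared low counts and carry no test.

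**Figure D4:**
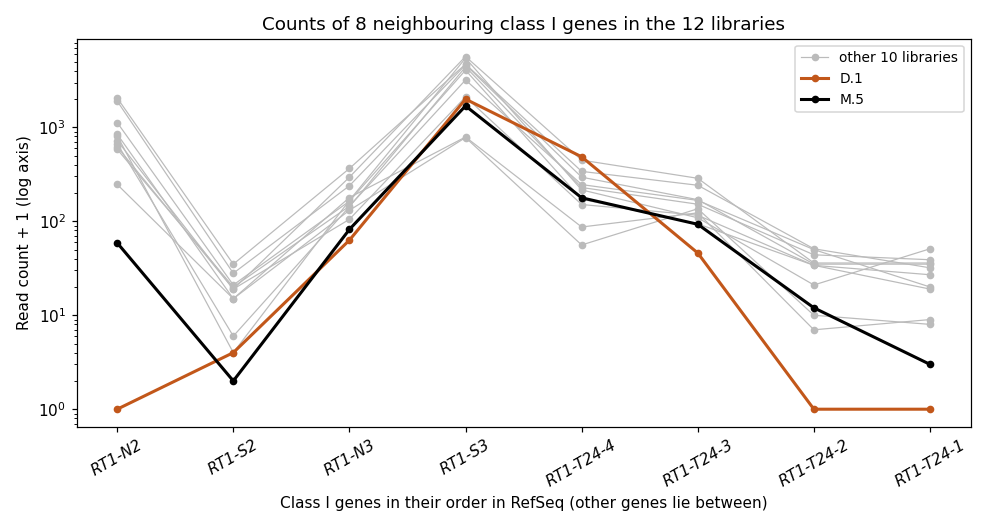
Read count plus 1 on a log axis of 8 class I genes, in their order in RefSeq, with 1 line per library. D.1 lies at 0 counts for RT1-N2, RT1-T24-2 and RT1-T24-1 but highest for RT1-T24-4, and M.5 is low for RT1-N2 and RT1-T24-1.

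Among tested class I genes, 7 of 19 (36.8%) had a range of more than 8-fold between libraries of one group, against 8.56% of all genes tested and 0 of 6 class II genes. Of these, RT1-CE6, RT1-M6-2, RT1-T24-1 and RT1-T24-2 had between 0 and 2 counts in their lowest library, so their ranges rest on few counts. The other 3 were RT1-A1, RT1-CE16 and RT1-N2, with highest counts of 3633, 1727 and 2056. The widest range of RT1-N2, in arm D, also starts from a count of 0, in D.1, while its model libraries ran from 58 to 847 counts. Sprague Dawley rats are an outbred stock, and rat strains are known to differ in which class I genes they carry. Neither the class I genes of these rats nor the counting of reads that match several members is given. The cause of these ranges was not tested. In RefSeq, 67 genes bear an RT1 symbol, 19 of them pseudogenes, and 34 of the 67 stand in the count tables.

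In arm D, 17 of 19 class I genes had a positive log2 fold change against the model, and their median was 0.71 beside −0.04 over all genes. The median was 0.39 without D.7 and 0.95 without D.1. RT1-T24-4 was at 18.8, 9.76 and 17.0 CPM in arm G, 34.4, 25.6 and 20.5 CPM in arm D, 14.3, 4.95 and 11.7 CPM in the model, and 11.0, 13.7 and 11.2 CPM in the normal group. Its arm D libraries lay above all others, with a log2 fold change of 1.38 ± 0.38 against the model (unadjusted p of 0.00346, adjusted 0.783 by edgeR). RT1-CE5 was at 17.8, 7.83 and 25.4 CPM in arm G, 14.2, 15.6 and 21.97 CPM in arm D, 6.89, 9.99 and 6.18 CPM in the model, and 6.40, 14.8 and 11.5 CPM in the normal group, and had 1.17 ± 0.43 in arm D against the model. RT1-CE7 was at 30.02, 25.1 and 24.4 CPM in arm G, 21.1, 34.7 and 31.0 CPM in arm D, 11.8, 15.2 and 22.8 CPM in the model, and 29.7, 23.6 and 18.4 CPM in the normal group, and had 0.80 ± 0.30. The lower genes were RT1-CE6, at −1.23, and RT1-M6-2, at −1.14, neither past an unadjusted p of 0.05. RT1-CE6 had −0.07 without M.5, its highest library.

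Arm G against the model gave a similar direction for class I, with the same model libraries: 18 of 19 genes were positive, with a median of 0.56 beside 0.00 over all genes. RT1-CE5 had 1.15 ± 0.43 and RT1-CE7 had 0.67 ± 0.30, with unadjusted p-values of 0.0190 and 0.0426 and an adjusted p of 0.9997 by edgeR. RT1-CE10 had 0.84 ± 0.40; it was at 67.5, 113 and 103 CPM in arm G, 42.4, 47.5 and 70.3 CPM in arm D, 37.5, 78.4 and 42.4 CPM in the model, and 34.0, 96.3 and 58.8 CPM in the normal group. RT1-CE6 had −1.45 ± 0.80, with −0.30 without M.5 and −2.06 without G.4.

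Class I in arm G against arm D had a median of −0.02, with 9 of 19 positive, beside the −1.19 of class II. RT1-T24-4 had −0.82 ± 0.38 (unadjusted p of 0.0496). RT1-CE10 had 0.82 ± 0.40 and RT1-M6-2 had 1.62 ± 0.89. RT1-M6-2 was at 0.575, 3.18 and 0.832 CPM in arm G and at 0.426, 0.459 and 0.545 CPM in arm D, and its fold change was 0.53 without G.3. In the model against the normal group the class I median was −0.26, with 5 of 19 positive (−0.10 without N.2 and −0.42 without N.3), and none passed an unadjusted p of 0.05; RT1-CE7 had −0.52 ± 0.30 (−0.33 without M.5 and −0.83 without M2.1) and RT1-T24-2 had −1.35 ± 0.93.

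B2m and Nlrc5 overlapped between all groups. B2m, the light chain of class I molecules, was at 2203, 1967 and 2318 CPM in arm G, 3109, 2107 and 2231 CPM in arm D, 3051, 2015 and 1556 CPM in the model, and 1642, 1773 and 2467 CPM in the normal group. D.1 and M.5 were its highest libraries. Nlrc5 was at 4.41, 9.19 and 5.06 CPM in arm G, 4.54, 8.72 and 18.2 CPM in arm D, 6.97, 9.09 and 10.3 CPM in the model, and 7.36, 6.91 and 3.06 CPM in the normal group, with D.7 highest, and had −0.51 ± 0.50 in arm G against the model, with −0.88 without G.3 and −0.32 without G.1.

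Among the genes of peptide supply, Tap1 and Tapbp were higher in every arm D library than in every model library. Tap1, a chain of the peptide transporter, was at 32.4, 41.1 and 44.6 CPM in arm G, 42.4, 55.5 and 92.9 CPM in arm D, 40.3, 29.1 and 36.9 CPM in the model, and 34.5, 33.8 and 32.4 CPM in the normal group. It had a log2 fold change of 0.85 ± 0.28 in arm D against the model (unadjusted p of 0.0113) and of −0.69 ± 0.28 in arm G against arm D (unadjusted p of 0.0303), and D.7 was far above the rest. Without D.7 these were 0.47 and −0.32. Tapbp, which encodes tapasin, was at 50.7, 13.8 and 58.7 CPM in arm G, 40.4, 64.9 and 71.7 CPM in arm D, 31.9, 12.1 and 33.8 CPM in the model, and 51.2, 48.6 and 33.6 CPM in the normal group. It had 1.18 ± 0.50 in arm D against the model (unadjusted p of 0.0344) and −0.77 ± 0.49 in the model against the normal group, the second of which was −0.44 without M.6. G.3 and M.6, with the highest mitochondrial shares, were its lowest libraries. Tap2, the other transporter chain, had at most 6 counts in a library and was not tested.

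The immunoproteasome subunits overlapped between arm D and the model. Psmb8 was at 45.03, 13.6 and 36.3 CPM in arm G, 22.1, 47.3 and 63.6 CPM in arm D, 27.5, 9.63 and 31.6 CPM in the model, and 35.2, 32.5 and 27.7 CPM in the normal group. Psmb9 was at 44.3, 49.6 and 44.0 CPM in arm G, 41.6, 57.5 and 82.5 CPM in arm D, 61.7, 27.0 and 36.4 CPM in the model, and 26.3, 30.4 and 27.8 CPM in the normal group, with 0.57 ± 0.32 in the model against the normal group, which was 0.17 without M.5. Psmb10 was at 29.5, 52.1 and 35.9 CPM in arm G, 31.8, 43.0 and 53.6 CPM in arm D, 41.4, 24.8 and 18.5 CPM in the model, and 26.1, 26.6 and 23.9 CPM in the normal group. Their counterparts, the 14 genes of the constitutive proteasome, had a median of −0.13 in arm D against the model, with 4 positive.

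Pdia3, a disulfide isomerase of the loading complex, was at 431, 154 and 435 CPM in arm G, 373, 398 and 431 CPM in arm D, 554, 231 and 432 CPM in the model, and 445, 404 and 423 CPM in the normal group. It was lowest in G.3 and M.6, and its log2 fold change of −0.02 in arm D against the model had no stable sign. Erap1, the peptidase that trims peptides to length, was at 46.4, 27.5 and 38.5 CPM in arm G, 26.0, 36.7 and 55.6 CPM in arm D, 31.8, 26.1 and 46.1 CPM in the model, and 45.3, 42.3 and 34.2 CPM in the normal group, with all groups overlapping. Of the 7 tested genes of processing and loading 6 were positive in arm D against the model (median 0.60) and 0 in arm G against arm D (median −0.40).

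**Figure D5:**
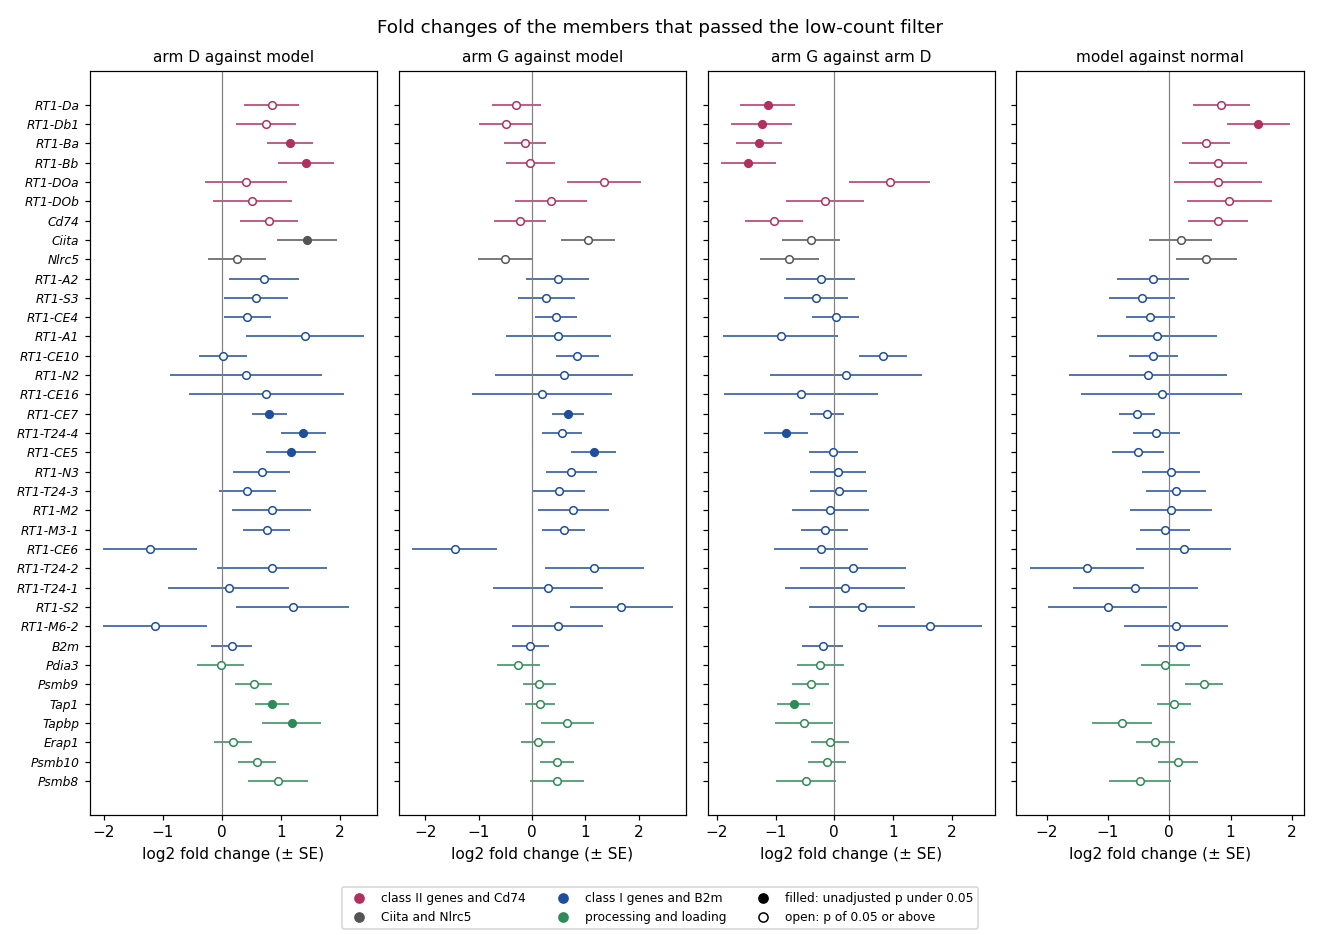
Log2 fold change with SE of the 36 members that passed the low-count filter, in arm D against the model, arm G against the model, arm G against arm D and the model against the normal group. Filled points have an unadjusted p under 0.05 and none has an adjusted p under 0.05; all 6 class II genes lie right of 0 in arm D against the model, and all but RT1-DOa lie left of 0 in arm G against arm D.

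Over all 36 tested members, 8 were higher in arm D than in the model at an unadjusted p under 0.05, against 3.04% of all tested genes. None was lower, against 3.24%. The arm D and model libraries did not overlap for 7 higher members, beside 5.93% of all genes, and for 1 lower member, beside 6.71%. The 8 members were RT1-T24-4, RT1-Bb, Tap1, RT1-Ba, Ciita, RT1-CE5, RT1-CE7 and Tapbp. Their number was 3 without D.4, 4 without D.7, 17 without D.1 and 13 without M.5. The shares of all genes above belong to the fit of all 12 libraries and were not worked out with a library left out.

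Between the arms, 6 members were lower in arm G than in arm D at an unadjusted p under 0.05, beside 0.971% of all genes, and 0 were higher, beside 2.45%. Libraries of the arms did not overlap for 5 lower members, beside 3.35%, and for 1 higher member, beside 4.08%. The count of 6 was 2 without D.4. There were 2 members higher in arm G than in the model, beside 1.2%, and 0 were lower, beside 1.13%. The count of higher members was 0 without G.4, 1 without M.5, D.4 or D.7, and 4 without G.1 or D.1. Without M.6, 3 were higher and 1 was lower. In the model against the normal group 1 of 36 members was higher, beside 3.01%, a share near that of all genes, and 0 were lower, beside 1.9%. Without M.5 or N.1, 0 were past that p in either direction. There were 1 higher and 1 lower without D.1, 3 higher and 1 lower without M.6, and 4 higher and 2 lower without M2.1. Here too the shares of all genes are those of the fit of all 12 libraries.

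By the authors' deposited tables, none of the members (0) had an adjusted p under 0.05. At an unadjusted p under 0.05 the authors' deposited table for arm D against the model held 9 of 45 listed members. That for arm G against the model held 1 of 46, and that for the normal group against the model 2 of 45. The share of all genes past that p in the authors' tables was not worked out, so these counts have no background beside them.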

How the data were processed

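Per the labels' protocols, liver RNA went through Trizol extraction and an NEBNext Ultra library kit. The authors deposited 3 tables, each with 6 libraries, which per the file headers hold raw read counts. The counting tool and its use of strand are not given here. DESeq2 and mm9, a mouse build, are named without versions in the submitters' processing notes. The authors' deposited log2 fold changes, p-values and adjusted p-values were used only where their table is named, and 36 other per-sample columns were not used. Columns were matched to groups by their letters. The model counts in the tables were identical (0 differed), and tables were joined on the gene name.

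The quasi-likelihood test of edgeR 4.0.16 (R 4.3.3) was run on 12355 genes kept by filterByExpr, with TMM scaling, in 1 fit of all 12 libraries with a mean per group. Adjusted p-values are Benjamini-Hochberg values over every gene tested, and 0.05 was the threshold. CPM uses the scaled library sizes, and log2 CPM a prior count of 2. DESeq2 1.42.0, limma 3.58.1 (voom with quality weights), other scalings, no filter, 2 groups alone and leaving out libraries were the alternatives. The members and gene lists were chosen with earlier results of these data known. Members named with values were the 3 of smallest p per direction and comparison, the class II genes, the 12 members without the RT1 prefix, the class I genes of highest counts, those of widest range and those most alike to RT1-Da and RT1-A2. RT1-N2 was singled out after its values were seen, as were its neighbours. Promoters are from RefSeq, assembly GRCr8, which matched all 46 members by symbol. The ± values of fold changes are approximate standard errors, the log2 fold change without its sign divided by the square root of the test's F value. Those of summed CPM are SDs of 3 libraries, so both include the spread between libraries. The floor given for D.1 covers counting error only.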

Additional observations from a re-analysis of the deposited data

How the results depend on the processing

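No member passed an adjusted p of 0.05 under any alternative that was run, so the count of 0 did not depend on the processing. The number of members past an unadjusted p of 0.05, in either direction, did. In arm D against the model it was 8, and 3 to 17 with 1 library left out. In arm G against the model it was 2, with 1 when only the 2 groups were fitted, 5 without M.6 and G.3, 4 by DESeq2, 4 by limma-voom with quality weights, and 0 to 4 with 1 library left out. In arm G against arm D it was 6, with 12 by limma-voom and 2 to 7 with 1 library left out. In the model against the normal group it was 1, with 2 when only the 2 groups were fitted, 3 without M.6 and G.3, 10 by limma-voom, and 0 to 6 with 1 library left out. For the alternatives the share of all genes past that p was not worked out, so their counts of members have no background beside them. Values near 0 changed sign. The class I median in arm G against arm D was 0.17 without M.6 and G.3, 0.054 by limma-voom and −0.36 to 0.20 with 1 library left out, and the class II median in arm G against the model was −0.47 to 0.54. Pdia3 in arm D against the model had 0.004 on nuclear-coded genes alone, 0.017 with no filter and −0.30 to 0.27 with 1 library left out. RT1-DOa in arm G against arm D had −0.28 without M.6 and G.3, −0.087 by limma-voom and −0.28 to 1.36 with 1 library left out, and RT1-Db1 in arm G against the model had −0.88 to 0.39. The cause was not tested. No paired analysis was possible because the numbers in the column names do not follow the replicate numbers of the labels. G.3 held 4869054 nuclear-coded counts and M.6 held 7173229, the lowest of the 12 libraries, which limits the precision of low members there.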
